A study of Mus musculus with 4 samples.

Results

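Kinesins are motor proteins that walk along microtubules. The tables held 38 genes whose symbol is Kif followed by a digit, of 24063 gene symbols in all, and they were described here in endothelial cells (ECs) of the mouse lung. Where a gene had several transcripts, the most highly counted of them stood for it. By their known roles, 12 were grouped as mitotic, 12 as transport, 7 as cilium and 6 as other kinesins, and Kif4-ps is a pseudogene. RNA was sequenced from ECs of C57BL6J mice aged 8 weeks, 7 days after unilateral pneumonectomy (PNX), in which the left lung is removed, or from mice whose chest was opened without removing the lung (sham). A day after surgery is given in the labels of the PNX libraries and not in those of the sham libraries. The labels name no genetic change, and both groups had thoracotomy under anesthesia. Each group had 2 libraries, each pooled from 2 mice. ECs were taken with magnetic beads against CD31, a surface protein of ECs, over a pair of successive columns.

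A kinesin has a motor domain that turns ATP hydrolysis into movement or into bending of the microtubule end. Some kinesins work in cell division: they push the spindle poles apart, bring chromosomes to the spindle equator, shorten microtubules at kinetochores and carry the proteins that close the cleavage furrow, and their genes are transcribed mostly in the late phases of the cell cycle. Others carry vesicles, mitochondria and membrane receptors in cells that need not divide, and a further group builds or moves cilia.

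Depth was similar between libraries, with 41367438 to 50952879 counts per library over 1 transcript per gene, and a limit of 3 counts corresponded to 0.0589 to 0.0725 CPM, the counts scaled by library total. Values below are normalized counts, that is, counts scaled to the same effective library size. The libraries went against the stated sex: the mice were described as male, but no library had a count for any of the 44 genes of chromosome Y listed, and the normalized counts of Xist, which is transcribed from the inactive X chromosome, were 31872 to 33792. The mismatch was the same in sham and PNX libraries, so no library could be set aside for it. None of the 12 EC markers was at 0, and their summed normalized counts were 551910 and 557600 in sham libraries and 462220 and 463890 in PNX libraries. Markers of other cells were also high: the 8 alveolar epithelial markers summed to 351400 and 352940 in sham libraries, led by the surfactant gene Sftpc. The fraction thus held RNA of other lung cells as well, and in bulk RNA a change in the number of cells of a type cannot be told apart from a change in RNA per cell.

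Promoter sequences from RefSeq (GRCm38.p6) are shown first, and any part of their motifs in the differences below was not tested. A promoter window of 300 bases, 250 before and 50 after a transcription start that RefSeq gives for the gene, was given for 31 of the 38 genes and not for Kif13b, Kif19a, Kif20a, Kif21b, Kif4-ps, Kif5a and Kif5b. The windows were searched on both strands for the cell cycle homology region (CHR, TTTGAA or TTCGAA), an element of many genes of late cell cycle phases, for the CCAAT box (CCAAT), and for an E2F element (TTTCGCGC or TTTGGCGC), where E2F factors can bind. These 3 motifs were searched apart from each other, and matches may touch. For 5 genes the 150 bases before the start are printed 5′ to 3′ on the strand of the gene, with matches in capitals. They are Kif11 (chr19:37376232-37376381, plus strand) and Kif15 (chr9:122950931-122951080, plus strand), which hold a CHR near the start, Kif18a (chr2:109280588-109280737, plus strand), the mitotic kinesin with the smallest change, and for contrast the transport kinesins Kif3c (chr12:3364982-3365131, plus strand) and Kif5c (chr2:49619136-49619285, plus strand). A match on the other strand reads ATTGG for the CCAAT box, TTCAAA for the CHR and GCGCCAAA for the E2F element.
Kif11: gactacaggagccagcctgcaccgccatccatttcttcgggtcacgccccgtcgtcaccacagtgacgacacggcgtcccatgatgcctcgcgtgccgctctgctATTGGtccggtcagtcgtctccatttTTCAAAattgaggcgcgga
Kif15: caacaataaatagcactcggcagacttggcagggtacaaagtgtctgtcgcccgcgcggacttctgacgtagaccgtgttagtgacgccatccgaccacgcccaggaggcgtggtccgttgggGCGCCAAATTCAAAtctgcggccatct
Kif18a: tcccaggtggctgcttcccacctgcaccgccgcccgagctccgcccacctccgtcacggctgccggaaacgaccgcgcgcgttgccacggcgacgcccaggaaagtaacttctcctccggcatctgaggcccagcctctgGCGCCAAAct
Kif3c: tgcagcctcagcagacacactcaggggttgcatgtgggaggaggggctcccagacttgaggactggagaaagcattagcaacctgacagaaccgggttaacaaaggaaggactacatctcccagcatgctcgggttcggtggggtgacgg
Kif5c: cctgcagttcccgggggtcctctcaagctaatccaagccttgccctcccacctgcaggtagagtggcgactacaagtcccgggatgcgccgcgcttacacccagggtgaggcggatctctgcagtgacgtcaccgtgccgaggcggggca

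In Kif11 the CCAAT box began 45 bases and the CHR 19 bases before the start. In Kif15 the E2F element began 27 bases before the start and ran directly into a CHR at 19 bases, and Kif18a held an E2F element 10 bases before the start and no CHR. Kif3c and Kif5c held none of these letters in the whole window. They do not stand for the whole transport class, as Kif1b, Kif3a and Kif3b held a CCAAT box. Over the 10 mitotic kinesin genes that had a window and were tested, 9 held a CHR (90%), compared with 19.2% of all 32851 windows and 14.2% of the windows of genes tested. With the untested Kif2b, which held no CHR, the count was 9 of 11 (81.8%). A CHR was found in 1 of 9 transport genes, Kif1a, in 2 of 6 cilium genes, Kif24 and Kif27, and in 1 of 5 other genes, Kif26b. The 5 other genes include Kif12, which was not tested. The CCAAT box occurred in 60% of these 10 mitotic windows, 37.4% of all windows and 37% of the windows of genes tested. It was also found in 3 of 9 transport genes, 3 of 6 cilium genes and 1 of 5 other genes. CHR and CCAAT box together occurred in 60%, 7.52% and 5.67% of the same 3 sets of windows. The E2F element was found in 2 of the 10 mitotic genes, Kif15 and Kif18a, in 0.813% of all windows and in 1.37% of the windows of genes tested. The start a window is built on is not always the outermost start of its gene: it lay 1547 bases inside Kif14, 3852 inside Kif2c and 9798 inside Kif27, and the CHR of Kif1a was in a window 19559 bases inside. Over windows within 300 bases of the outermost start, 7 of 8 tested mitotic genes, 0 of 8 transport genes, 1 of 5 cilium genes and 1 of 2 other genes held a CHR. These matches describe letters, not bound sites.

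The comparison of PNX with sham asked which kinesins differed in lung ECs 7 days after PNX. Every tested kinesin grouped as mitotic was higher after PNX and none of those grouped as transport passed the same rule. A gene was called when its log2 fold change was over 1 in size and its p-value, after Benjamini-Hochberg adjustment over the 16208 genes in edgeR's quasi-likelihood test, under 0.01. Of the 35 kinesins with enough counts to be tested, 11 were called higher, all 11 of them mitotic, and 1 lower, Kif27. Over all genes tested 5.9% were called higher and 1.66% lower. At an adjusted p under 0.01 with no limit on size, 13 kinesins were higher, 14 were lower and 8 did not pass. Over all genes 29.3% were higher and 27.8% lower. Both PNX libraries lay above both sham libraries for 15 of the 38 kinesins and below them for 15. For all 24063 gene symbols these counts were 7266 and 7044. The 3 kinesins not tested, the mitotic kinesin Kif2b, Kif12 and Kif4-ps, had 0 counts in every library. The p-values rest on the spread between 2 libraries of pooled mice in each group. This spread was small (median SD of log2 normalized counts 0.036), so very small p-values may not reflect the variation between mice.

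**Figure D1:**
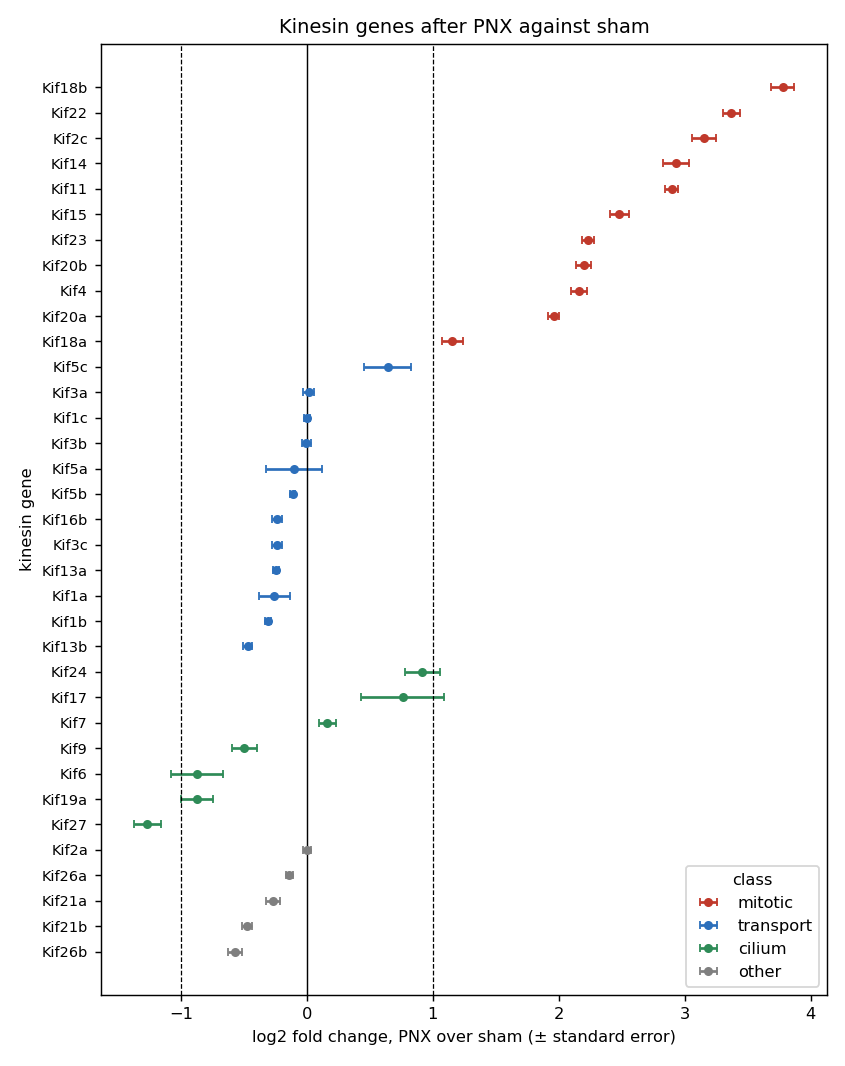
Log2 fold change of PNX over sham (x axis) for the 35 kinesin genes tested (y axis), with the standard error of the fit as bars, colored by class; dashed lines mark a log2 fold change of 1 in either direction. All 11 mitotic kinesins lie beyond the right line, from 1.16 to 3.78, and Kif27 alone lies beyond the left one.

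Among motors of the spindle, Kif11, the bipolar motor that slides antiparallel microtubules apart to separate the spindle poles, had 381 and 362 normalized counts in sham and 2801 and 2743 in PNX. Both PNX libraries were far above both sham libraries. The log2 fold change was 2.90 (SE 0.050), a 7.45-fold rise (edgeR's quasi-likelihood test, adjusted p = 8.5e-51). Kif15, a motor that can hold the bipolar spindle beside Kif11, had 193 and 182 normalized counts in sham and 1042 and 1061 in PNX. Its log2 fold change was 2.48 (SE 0.073), the median of the mitotic class. Kif14, which binds citron kinase and PRC1 at the midbody, was the least abundant mitotic kinesin per length in sham ECs, and rose from 84.2 and 76.5 to 621 and 609 normalized counts (log2 fold change 2.93, SE 0.10).

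Motors that move chromosomes or shorten microtubules held both the largest and the smallest changes of the class. Kif18b, which shortens astral microtubules and positions the spindle, had 66.1 and 91.7 normalized counts in sham and 1098 and 1052 in PNX. This was the largest fold change of all kinesins, 13.7-fold (log2 3.78, SE 0.092), and its sham libraries differed from each other more, relative to their mean, than those of the other mitotic kinesins. Kif22, a chromosome arm motor that pushes chromosomes away from the poles, rose 10.3-fold, from 146 and 154 to 1543 and 1557 normalized counts. Kif2c, which depolymerizes microtubules at centromeres to correct wrong attachments, rose 8.91-fold, from 87.0 and 83.6 to 732 and 794. The groups did not overlap for any of these 3 genes. Kif4, a chromosome motor that also controls the length of the central spindle, rose from 253 and 287 to 1212 and 1197 normalized counts (log2 fold change 2.16, SE 0.066). Kif18a, which dampens chromosome oscillation at the metaphase plate, changed least, with 240 and 233 normalized counts in sham and 550 and 504 in PNX. Its log2 fold change was 1.16 (SE 0.084, adjusted p = 4.9e-19 by edgeR's quasi-likelihood test), just past the size limit. A test against the limit itself, edgeR's glmTreat, gave an adjusted p of 0.203.

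The motors of cytokinesis included the most abundant mitotic kinesins. Kif20a, which carries the chromosomal passenger complex to the central spindle, had 767 and 766 normalized counts in sham and 2968 and 3000 in PNX (log2 fold change 1.96, SE 0.042). Kif23, the motor of the centralspindlin complex that recruits the furrow machinery, had 563 and 547 in sham and 2615 and 2620 in PNX (log2 fold change 2.23, SE 0.046). Kif20b, which acts in midbody maturation and abscission, rose from 331 and 324 to 1479 and 1530 (log2 fold change 2.20, SE 0.059). In all 3 genes the libraries of a group were close to each other and the groups far apart. Kif20a and Kif23 had the highest sham counts of the mitotic class.

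**Figure D2:**
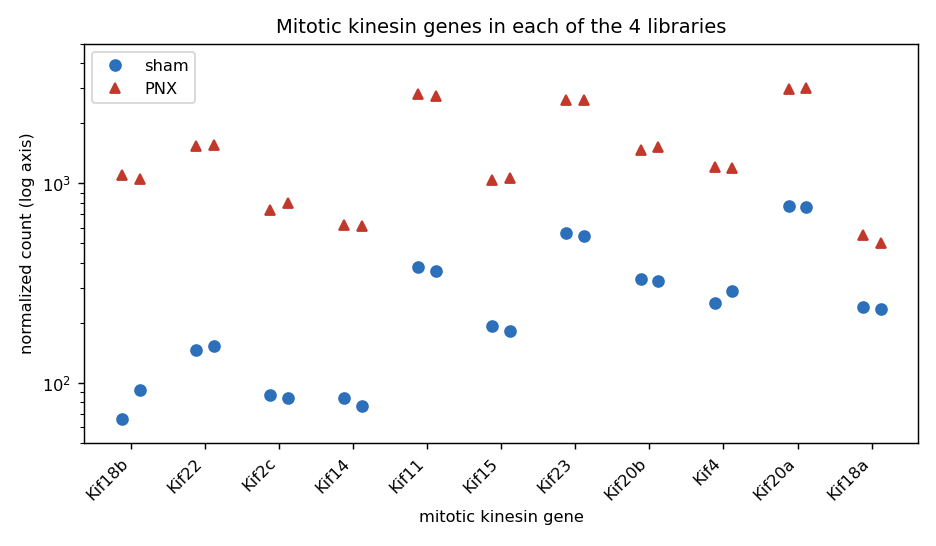
Normalized counts (y axis, log scale) of the 11 mitotic kinesins tested in each of the 4 libraries, with sham libraries as circles and PNX libraries as triangles. Both PNX libraries lie above both sham libraries for all 11 genes, with Kif18a the closest pair of groups.

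Reads of some of these genes could not be assigned without doubt, since the program that counted them and its strand setting are not given in the sources used here. Kif20a shares 1271 exon bases with Cdc23 on the opposite strand, whose mean normalized count was 2857 in sham and 3295 in PNX. Kif4 shares 832 bases with Pdzd11 (1143 in sham and 1411 in PNX). The overlapping genes differed between groups by less than the kinesins did. Kif4 and Kif22 also have pseudogene copies, and counts of near-identical copies are uncertain.

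The transport kinesins showed small differences. None of 12 was called, and the median log2 fold change was -0.18 (from -0.47 to 0.64), or 0.085 when counts were scaled to the 12 EC markers, compared with 0.00 and 0.26 over all genes tested. With no limit on size, 1 was higher, 6 were lower and 5 did not pass an adjusted p of 0.01. Among all genes tested, 5.9% were called higher and 1.66% lower, and with no limit on size 29.3% were higher and 27.8% lower. Both PNX libraries lay below both sham libraries for 7 transport genes and above them for 1, and in 4 the groups overlapped. Over all 24063 gene symbols, both PNX libraries lay below both sham libraries for 7044 and above them for 7266. Under the scaling to EC markers most of these falls were no longer falls, and the values are given below gene by gene.

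Conventional kinesin is a dimer of heavy chains, encoded by Kif5a, Kif5b and Kif5c, that carries mitochondria and vesicles. Kif5b, the heavy chain found in most tissues, had 12895 and 12474 normalized counts in sham and 11806 and 11638 in PNX. Both PNX libraries were lower, by a log2 fold change of -0.11 (SE 0.021, adjusted p = 3.7e-06 by edgeR's quasi-likelihood test), which became 0.15 when scaled to EC markers. Kif5c, known mainly from neurons, was the transport kinesin that was higher, with 54.4 and 57.1 normalized counts in sham and 73.7 and 101 in PNX (log2 fold change 0.64, SE 0.19, adjusted p = 0.0024 by edgeR's quasi-likelihood test). Its PNX libraries differed from each other by more than the gap between the groups. Without PNX replicate 2 the log2 fold change was 0.41 (adjusted p = 0.15), without sham replicate 1 it was 0.60 (adjusted p = 0.022), and DESeq2's Wald test gave an adjusted p of 0.087, so that none of these passed 0.01 (the first pair by edgeR's quasi-likelihood test). Kif5a, the other neuronal heavy chain, had 48.9 and 51.0 in sham and 43.2 and 50.1 in PNX, and did not pass (log2 fold change -0.10, or 0.16 scaled to EC markers, adjusted p = 0.70 by edgeR's quasi-likelihood test).

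Heterotrimeric kinesin, made of Kif3a with Kif3b or Kif3c, carries membrane cargo and also builds cilia. Kif3a had 1426 and 1462 normalized counts in sham and 1475 and 1438 in PNX, and Kif3b had 2509 and 2562 in sham and 2515 and 2542 in PNX. The groups overlapped for both, with log2 fold changes of 0.01 (SE 0.043) and -0.00 (SE 0.034), and Kif3b was at 0.26 when scaled to EC markers. Kif3c, their alternative partner, was lower, with 2063 and 1948 in sham and 1712 and 1689 in PNX (log2 fold change -0.24, SE 0.039), but this became 0.02 when scaled to EC markers. Kif3c shares 2617 exon bases with a gene on the opposite strand, 1110002L01Rik (mean 580 in sham and 493 in PNX).

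The motors that carry vesicles as monomers or dimers with a lipid-binding tail were the other large part of the class. Kif1c, a motor of integrin and dense core vesicles, had 12437 and 12438 normalized counts in sham and 12301 and 12593 in PNX, and its log2 fold change was 0.00 (SE 0.021). Kif1b, which carries mitochondria or synaptic vesicle precursors depending on the isoform, fell from 8451 and 8190 to 6611 and 6808 (log2 fold change -0.31, SE 0.024). The 3 counted transcripts of Kif1b, which encode its short and long isoforms, had log2 ratios from -0.31 to -0.23. Kif13a, which carries mannose 6-phosphate receptors and recycling endosomes, had 8854 and 8984 in sham and 7416 and 7627 in PNX (log2 fold change -0.25, SE 0.023). Kif13b, a motor that carries VEGF receptor 2 to the surface of ECs, had 2847 and 2853 in sham and 2092 and 2018 in PNX (log2 fold change -0.47, SE 0.035), the largest fall of the class. Scaled to EC markers, Kif13b remained lower (-0.21), Kif1b was at -0.05 (adjusted p = 0.066, edgeR's quasi-likelihood test) and Kif13a at 0.01. Kif16b, a motor of early endosomes, had 1920 and 1907 in sham and 1627 and 1619 in PNX (log2 fold change -0.24, or 0.02 scaled to EC markers). Kif1a, a motor of synaptic vesicle precursors in neurons, had 188 and 174 in sham and 163 and 139 in PNX and did not pass (log2 fold change -0.26, or 0.0013 scaled to EC markers, adjusted p = 0.057 by edgeR's quasi-likelihood test).

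Setting the classes side by side, the lowest mitotic log2 fold change (1.16, Kif18a) was above the highest transport one (0.64, Kif5c), and the class medians differed by 2.66. This separation rests on the classes as set, with Kif2a at 0.00 among the other and Kif17 at 0.76 among the cilium kinesins. Levels compared between genes were divided by transcript length, as normalized counts per kb. The median mitotic level went from 58.9 in sham to 270 per kb in PNX and the median transport level from 401 to 332. Summed over genes, the mitotic level was 10.2% and 10.3% of the transport level in sham and 62.5% and 62.2% in PNX, a 6.09-fold difference in this ratio. As the ratio is formed within each library, scaling between libraries does not enter it. Mitotic kinesins made up 7.44% and 7.54% of the summed kinesin level per kb in sham and 33.2% and 33.2% in PNX, while the transport share went from 73.2% and 73.1% to 53.2% and 53.3%. With 2 libraries in a group an exact permutation test cannot pass 0.05, and the ratio was not tested.

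**Figure D3:**
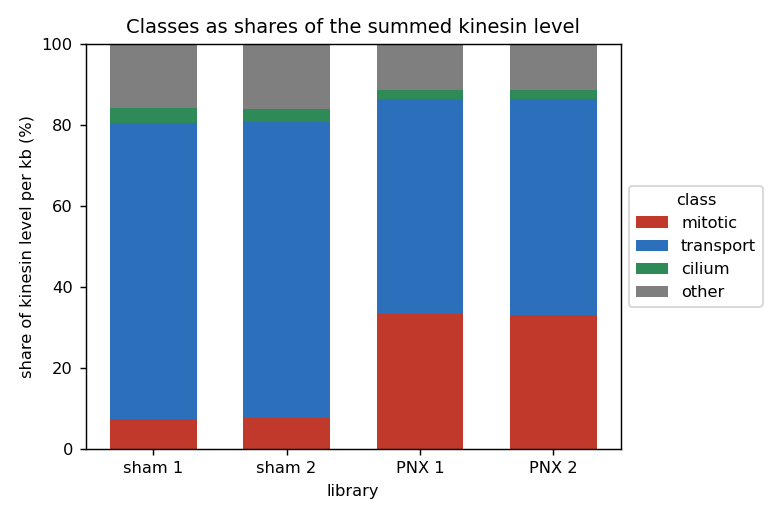
Share of the summed kinesin level per kb (y axis, percent) taken by each class in each of the 4 libraries (x axis). The mitotic share is 7.44% and 7.54% in sham and 33.2% in both PNX libraries, and transport kinesins hold the largest share in every library.

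The order of the single genes by level also differed. Per kb, Kif5b (2104), Kif1c (1839) and Kif13a (1299) were the 3 highest kinesins in sham, followed by Kif1b at 810, and the highest mitotic gene, Kif20a, was at rank 13. In PNX the first 3 were the same, with Kif5b at 1944, Kif1c at 1840 and Kif13a at 1096. The gap between Kif5b and Kif1c was larger than the spread of libraries in both groups, but in PNX it had narrowed to 1930 and 1862 in the closer library. Kif20a (834), Kif23 (764) and Kif22 (751) followed at ranks 4 to 6, ahead of Kif1b (653), and Kif11 was at rank 9. Kif22 had been at rank 20 in sham and Kif18b moved from rank 28 to 13. Kif5a, Kif5c and Kif17 were the 3 lowest tested kinesins in sham, with per kb levels of 4.19 to 8.15.

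**Figure D4:**
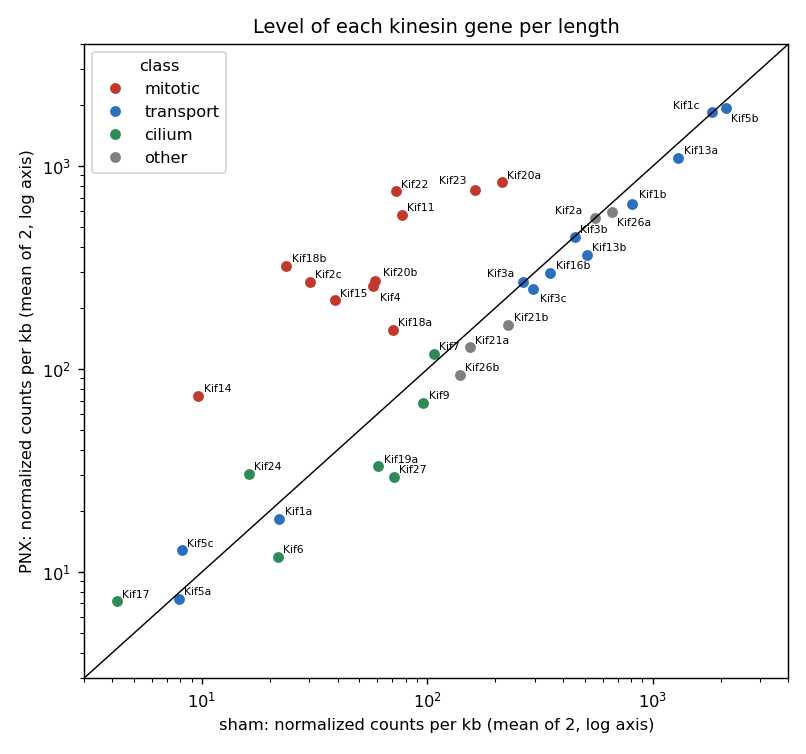
Level of the 35 tested kinesins as normalized counts per kb, mean of 2 libraries, in sham (x axis) and PNX (y axis), both on log axes, colored by class, with the line of equal levels. Mitotic kinesins lie above the line, and transport kinesins lie on or slightly below it apart from Kif5c, a position that scaling to EC markers moves up by about 0.26 on the log2 scale.

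Kinesins share motor families that cut across these classes, and this grouping was added after the values were seen. In the kinesin-13 family, whose members depolymerize microtubules, Kif2c rose while Kif2a, used in interphase and at spindle poles, had 2374 and 2298 normalized counts in sham and 2301 and 2378 in PNX (log2 fold change 0.00, SE 0.035, or 0.26 scaled to EC markers). Kif24, of the same family, was at 0.92 and Kif2b at 0 counts. Kif2a shares 1229 exon bases with Dimt1 on the opposite strand (mean 727 in sham and 588 in PNX). In the kinesin-3 family Kif14 rose by 2.93 on the log2 scale and the 6 transport members lay between -0.47 and 0.00. In the kinesin-4 family Kif4 rose by 2.16, whereas Kif21a, a cortical regulator of microtubule growth, was at -0.27 (-0.0098 scaled to EC markers, adjusted p = 0.87 by edgeR's quasi-likelihood test) and Kif21b, its relative known from neurons and lymphocytes, at -0.48. The cilium members of that family were Kif7 at 0.16 and Kif27 at -1.27. In the kinesin-8 family Kif18a and Kif18b rose and Kif19a, which limits the length of motile cilia, fell.

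The cilium kinesins moved in both directions. Kif27, a relative of Kif7 that acts in motile cilia, had 306 and 328 normalized counts in sham and 141 and 121 in PNX, a log2 fold change of -1.27 (SE 0.11, adjusted p = 8.0e-16 by edgeR's quasi-likelihood test). It was the kinesin called lower, though the test against the size limit gave an adjusted p of 0.0564. Kif19a had 226 and 191 in sham and 113 and 115 in PNX (log2 fold change -0.88, SE 0.13). Kif6, a motor of ependymal cilia, had 81.5 and 71.4 in sham and 40.3 and 43.5 in PNX, a log2 fold change of -0.87 (SE 0.20), and Kif9, a motor of motile cilia and sperm flagella, had 320 and 286 in sham and 217 and 213 in PNX (-0.50, SE 0.098). These 4 genes of motile cilia passed an adjusted p of 0.01 with both PNX libraries below both sham libraries. Scaled to EC markers their log2 fold changes were between -1.01 and -0.24, and Kif9 no longer passed (adjusted p = 0.029, edgeR's quasi-likelihood test). Kif6 did not pass 0.01 in DESeq2's Wald test (adjusted p = 0.027).

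The markers of motile ciliated cells moved the same way. All 14 of the 14 motile cilium genes tested, of 15 listed, were lower at an adjusted p under 0.01, and 4 were called. Over all genes these shares were 27.8% and 1.66%. The median log2 fold change of the list was -0.80. Dnah5, an outer arm dynein of motile cilia, was at -1.18, and Tppp3, the most abundant of the list, went from a mean of 10432 to 7919 normalized counts. The summed counts of the list were 17561 and 17682 in sham and 11847 and 12201 in PNX, and Tppp3 gave most of each sum. None of the 14 genes was at 0, and their part in the fall of the motile cilium kinesins was not tested.

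Of the other cilium kinesins, Kif24 was higher and Kif7 and Kif17 did not pass an adjusted p of 0.01. Kif24, which depolymerizes centriolar microtubules and restrains primary cilium formation, had 95.1 and 85.6 normalized counts in sham and 179 and 163 in PNX (log2 fold change 0.92, SE 0.14, adjusted p = 4.3e-08 by edgeR's quasi-likelihood test). It was close to the size limit and reached 1.18 when scaled to EC markers. Its promoter window held a CHR 26 bases before the start and 4 CCAAT boxes. The windows of Kif26b and Kif27, which were lower, also held both motifs, and any part of these motifs was not tested. Kif7, a regulator of Hedgehog signaling at the primary cilium tip, had 486 and 479 in sham and 554 and 524 in PNX and did not pass (log2 fold change 0.16, adjusted p = 0.038, edgeR's quasi-likelihood test), but was at 0.42 and passed when scaled to EC markers (adjusted p = 2.1e-06). Kif17, a motor of primary cilia and dendrites, had 14.5 and 18.3 in sham and 21.6 and 34.5 in PNX and did not pass (0.76, adjusted p = 0.041, edgeR's quasi-likelihood test), and it shares 74 exon bases on the same strand with Sh2d5 (mean 20.5 in sham and 53.2 in PNX). Leaving out 1 library moved Kif17 from 0.40 without PNX replicate 2 to 1.08 without PNX replicate 1. Of 25 tested genes of the primary cilium and its transport, 8 were higher, 6 lower and 11 did not pass, with a median of 0.04 and 1 call, the Hedgehog target Gli1 (1.62). Ift172, a subunit of the intraflagellar transport complex and the most abundant of these, was at -0.29. Among all genes tested 29.3% were higher and 27.8% lower, with 5.9% called higher and 1.66% called lower.

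Of the remaining kinesins tested, 4 were lower without being called, and Kif2a, given above, did not pass. Kif26b, an atypical kinesin that does not walk, had 1010 and 1053 normalized counts in sham and 673 and 719 in PNX (log2 fold change -0.57, SE 0.055). Kif21b had 2076 and 2102 in sham and 1452 and 1554 in PNX, and Kif21a had 1013 and 970 in sham and 815 and 832 in PNX. For these 3 genes both PNX libraries were below both sham libraries. Scaled to EC markers, Kif26b was at -0.31, Kif21b at -0.22 and Kif21a at -0.0098, where Kif21a no longer passed (adjusted p = 0.87, edgeR's quasi-likelihood test). Kif26a, a further atypical kinesin, differed little, with 4498 and 4585 in sham and 4184 and 4042 in PNX (-0.14, SE 0.028), and was at 0.12 when scaled to EC markers.

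Genes that act with the kinesins were described in the same way. Their lists were chosen by function but with earlier results of these data known, so the counts are description only. The partners of mitotic kinesins, such as kinases, chromosomal passenger proteins and spindle proteins, were all called higher, 20 of 20 tested. Their median log2 fold change was 3.02, and 5.9% of all genes tested were called higher. Prc1, which bundles the central spindle and is a cargo of Kif4, changed most at 3.68, and Mki67, a marker of cycling cells, had the highest counts, 1217 in sham and 9125 in PNX (log2 fold change 2.91). Top2a, the topoisomerase that untangles sister chromatids, was at 3.05. The 5 kinesin genes outside the symbol rule divided by function as well. Cenpe, the kinetochore kinesin that moves chromosomes to the equator, rose by 2.79 on the log2 scale from 281 and 258 normalized counts to 1865 and 1881. Kifc1, a minus-end motor that focuses spindle poles, was at 3.16 and its near-identical copy Kifc5b at 2.42, where reads may be split between the copies. Kifc3, a minus-end motor of epithelial junctions and membranes, was at -0.04 and did not pass, and Kifc2, known from neurons, was lower by less than the size limit (-0.85).

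The partners of transport kinesins had medians close to that of all genes. For reading the counts below, 5.9% of all genes tested were called higher and 1.66% lower. With no limit on size 29.3% were higher and 27.8% lower. Of 16 light chains and adaptors tested none was called, 2 were higher, 6 lower and 8 did not pass, and their median was -0.01. Klc1, the most abundant kinesin light chain, was at -0.13 and Mapk8ip1, a scaffold that links kinesin to cargo, at 0.67. Dynein and dynactin, which carry cargo in the opposite direction, had 0 of 25 genes called, 6 higher, 8 lower and 11 that did not pass, with a median of 0.01. The dynein heavy chain gene Dync1h1 was at -0.11, and the largest difference was that of the cargo adaptor Bicd1 (0.32). Bicd1 had 273 and 191 normalized counts in sham and 290 and 295 in PNX, so its sham libraries lay far apart. Tubulins, the subunits of the tracks, were between the mitotic and the transport lists. Of 15 tested, 13 were higher and 4 of these were called, with a median of 0.55. Tubb5, the most abundant, went from a mean of 13182 to 25452 normalized counts (0.95), and Tubb3 had the largest change (2.00) at low counts.

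**Figure D5:**
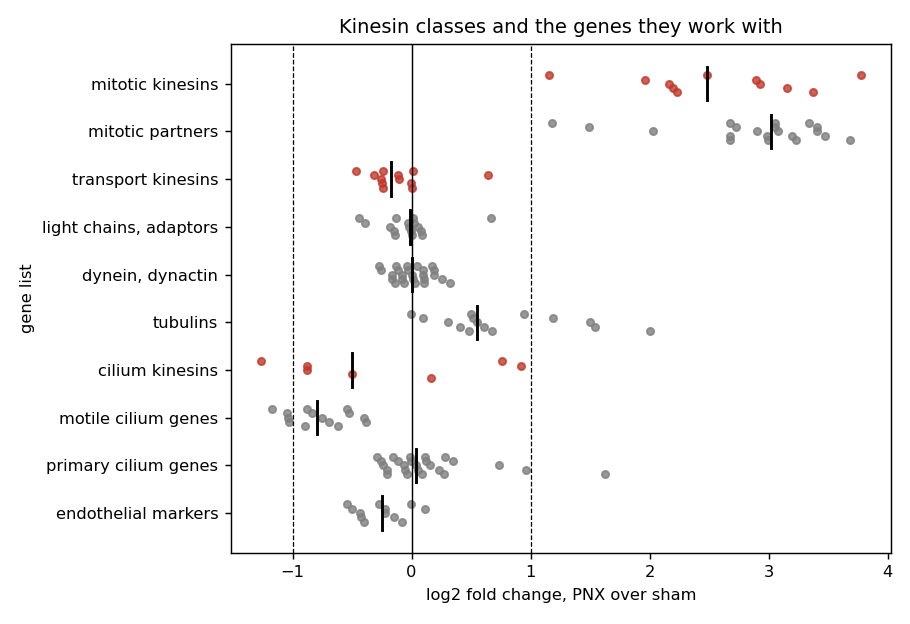
Log2 fold change of PNX over sham (x axis) for the tested genes of each list (y axis), 1 point per gene, with kinesin classes in red, related lists in gray and the median as a black bar; dashed lines mark a log2 fold change of 1 in either direction. The mitotic kinesins and their partners have medians of 2.48 and 3.02, transport kinesins, adaptors and dynein have medians of -0.18, -0.01 and 0.01, and the motile cilium genes lie below it.

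Markers of other cell types also differed between groups, and their part in the kinesin results was not tested. Beside the counts that follow, 5.9% of all genes tested were called higher and 1.66% lower. With no limit on size these shares were 29.3% and 27.8%. The 7 macrophage markers tested, of 8 listed, were all higher, 4 of them called. Their summed counts were 22295 and 22118 in sham and 56086 and 56388 in PNX, with the largest change for C1qb (2.98) and the highest counts for Mrc1 (0.70). Of 7 fibroblast markers 6 were higher, 5 of them called, and 1 was lower, Pdgfra (-0.23), which is named after its value was seen. They had sums of 63124 and 63705 in sham and 228060 and 229510 in PNX, and Lum changed most (4.26) while the collagen gene Col3a1 (2.27) had the highest counts. All 6 mesothelial markers were higher, 4 of them called, with sums of 11529 and 11667 in sham and 23941 and 24354 in PNX, led by Wt1 in change (2.68) and by Msln in counts (1.97). Of 7 smooth muscle and pericyte markers 6 were higher and 2 called, with sums of 16092 and 16236 in sham and 21872 and 21836 in PNX, led by Rgs5 in change (2.09) and by Pdgfrb in counts (0.27). None of the markers in these lists was at 0.

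The 5 markers shared by leukocytes summed to 37659 and 37641 in sham and 39737 and 40219 in PNX, with 3 higher, 1 lower and 1 that did not pass, and the largest change was that of Cd53 (0.30) and the highest counts those of Laptm5 (0.16). For all genes tested the shares were 29.3% higher and 27.8% lower, with 5.9% and 1.66% called. All 8 T and B cell markers were lower and none was called, with sums of 8234 and 8212 in sham and 5270 and 5067 in PNX, and the largest change was that of Cd79a (-0.87). The 8 alveolar epithelial markers were all lower with none called, and their sums in PNX were 230870 and 230310, with Sftpa1 at -0.71 and Sftpc at -0.62. Of the 12 EC markers 10 were lower, 1 higher and 1 did not pass, with a median of -0.25. Cdh5, the EC cadherin, was at -0.22 and Eng, a co-receptor of transforming growth factor beta, at -0.54. Of 7 neuron markers 4 could be tested, with 2 higher, 1 lower and 1 that did not pass. Tubb3, also a tubulin, was called higher (2.00), the most abundant, Stmn2, was at 0.15, and none of the 7 was at 0 in every library.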

How the data were processed

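RNA from lung ECs of 4 pools of mice was made into stranded mRNA libraries, read from both ends and mapped to mm10. STAR is named in the submitters' processing notes, and the counting program, its strand setting and the versions are not given in the sources used here. The deposited tables hold a count, an FPKM and a TPM for each of 33068 RefSeq transcripts, computed by the authors. Counts were used for all tests. The deposited FPKM served only to recover transcript lengths, and TPM was not used. Each symbol was kept as 1 transcript, that with the highest summed count. The fit used edgeR 4.0.16 (R 4.3.3) with filterByExpr, TMM factors (0.9985 to 1.0026) and the quasi-likelihood F test, with Benjamini-Hochberg adjustment over 16208 genes. Calls needed a log2 fold change over 1 in size and an adjusted p under 0.01. The standard error was the log2 fold change divided by the square root of F. Normalized counts were scaled to the mean effective library size and divided by length where genes were compared.

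On simulated counts for this comparison (16208 genes simulated), 199 of 200 changed genes and 0 of 16008 unchanged genes were called. The changed genes had a mean of at least 50 counts and changes past the size limit, and all others had no change. Dispersions were taken from these same libraries. The simulation thus checks that the fit runs as intended, and cannot tell how changes near the limit or at low counts are called. Within groups, libraries differed by little more than sampling noise (mean chi-square per gene 1.77 for sham and 1.53 for PNX). Between libraries of different groups the value was 119.4 to 133.6. Each library was counted as 1 sample because the paper describes each as a pool of 2 mice, and this statistic does not show that the pools were independent. The members, classes and lists were chosen with earlier results of these data known. Every kinesin was named, and of each other list the gene with the largest change past an adjusted p of 0.01 and the gene with the highest mean count, besides Mki67, Top2a and the kinesins outside the symbol rule. A gene that this rule picks is not reported here. Gene and promoter positions are from RefSeq (GRCm38.p6), and exon overlaps from the GENCODE M21 annotation. Alternatives were DESeq2 1.42.0, other scalings and filters, glmTreat, a replicate block, transcript sums and leaving out each library. Every column belonged to a labelled sample.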

Additional observations from a re-analysis of the deposited data

How the results depend on the processing

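The 12 called kinesins, 11 of them mitotic, and the 0 called transport kinesins changed by at most 2 genes in each direction under the alternatives: 10 kinesins by glmTreat, which tests against the size limit, and 14 when scaled to EC markers, where Kif24 (1.18) and Kif17 (1.02) were called. Scaling to EC markers gave a median log2 fold change of 2.74 for mitotic and 0.085 for transport kinesins and turned to positive values Kif5a (0.16) and Kif1a (0.0013), which had not passed before or after, and Kif26a (0.12), Kif3b (0.26), Kif5b (0.15), Kif16b (0.023), Kif3c (0.021) and Kif13a (0.014). Over all genes it gave 1328 higher and 84 lower calls (94.05% higher) instead of 957 and 269 (78.06%), and glmTreat gave 604 and 39. DESeq2's Wald test gave 831 and 180. A filter of at least 50 counts on average left 33 of the 35 kinesins. With Kif2a counted as mitotic and Kif17, Kif21a and Kif21b as transport, the mitotic median was 2.36 and the ratio of mitotic to transport levels differed 4.10-fold instead of 6.09-fold. In that grouping the mitotic Kif2a (0.00) was not called and lay below the transport Kif17 (0.76), so the classes overlapped. The ratio differed 5.61-fold with counts summed over transcripts and 5.95-fold without division by length. The 4 transcripts of Kif1a had the same counts in every library, so such sums can hold the same reads repeatedly. Leaving out each library in turn gave medians of 2.44 to 2.52 for mitotic and -0.19 to -0.16 for transport kinesins, and 12 kinesins called each time. The replicate numbers name pools of different mice (correlation of same-numbered deviations 0.030), and a fit with the replicate number as a block called 12 kinesins, 11 of them mitotic and 0 transport, with medians of 2.48 and -0.18, and changed no call. Precision was limited by 2 libraries per group, and for Kif17, Kif5a and Kif5c by low counts, where Kif5c ranged from 0.41 to 0.87 and Kif17 from 0.40 to 1.08 without 1 library.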
